A study of Mus musculus with 2 samples.

Results

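Protein tyrosine phosphatases and dual-specificity phosphatases were followed in total RNA of CD4+ alpha beta T cells taken from the spleens of LatY136F mice and of wildtype mice. They were taken as every gene whose only platform symbol begins with Ptpr (receptor type), Ptpn (non-receptor type) or Dusp (dual-specificity). This gave 40 genes on 47 probes, out of 4331 genes on 4654 probes with 1 gene symbol: 17 receptor type, 14 non-receptor type and 9 dual-specificity genes. A further probe named both Dusp28 and another gene and was left out.

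In LatY136F mice phenylalanine replaces 1 tyrosine of Lat, an adaptor at the membrane that links the T cell receptor to its downstream pathways; the comparison group carries wildtype Lat. Per the labels, the cells were purified on a sorter after magnetic selection with anti-CD4 beads; the labels give no age, strain background or number of mice. Both RNAs were hybridised together on 2 arrays with the dyes reversed, and the labels do not say whether these arrays used separate RNA extracts. The arrays were therefore counted as 1 biological comparison, and no p-value is given.

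Values are log2 ratios of LatY136F over wildtype on array 1 and on array 2, and ± is 0.5 times the difference between the arrays. That difference may be technical only and says nothing about the spread between mice. The direction is the likely one, not a stated one. Array 2 was turned because its dyes were reversed and over all probes the columns, as deposited, were negatively correlated (Pearson r = -0.21), and each ratio was read as channel 2 over channel 1. Under this reading Gata3, the master transcription factor of Th2 cells, to which LatY136F CD4+ T cells are known to be polarised, stood at 2.95 on array 1 and 2.91 on array 2. The Th2 cytokine Il13 stood at 3.67 and 3.12, while Il4, the defining Th2 cytokine, had opposite signs at 1.41 and -0.97. If the opposite reading held, every value below would change sign.

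Protein tyrosine phosphatases remove phosphate from tyrosine and so oppose the kinases that start T cell receptor signalling. Receptor type members cross the plasma membrane; the best known in T cells is CD45, encoded by Ptprc, which keeps the Src family kinase Lck ready for activation. Non-receptor members are intracellular and include SHP-1 (Ptpn6), SHP-2 (Ptpn11), TC-PTP (Ptpn2) and Ptpn22, which restrain receptor or cytokine signalling in T cells or, for SHP-2, can also promote it. Dual-specificity phosphatases act on tyrosine and on serine or threonine; those that bind MAP kinases switch these kinases off, and several are themselves transcribed in response to MAP kinase activity.

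A call required a ratio of 2-fold or more in the same direction on each array. Of the 40 genes, 4 were called higher in LatY136F cells (Ptpn13, Dusp6, Dusp16 and Dusp1) and 0 lower. Over all genes 4.20% were called higher and 0.970% lower, so the phosphatases' count rests on few genes, and whether it departs from the background was not tested. By group, 3 of 9 dual-specificity genes, 1 of 14 non-receptor genes and 0 of 17 receptor type genes were called higher. With a threshold of 1.5-fold on both arrays, the receptor type genes Ptpro and Ptpre joined, giving 6 higher and 0 lower; over all genes that threshold called 7.83% higher and 2.93% lower.

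The middle of each group lay close to 0. The median of the mean log2 ratios was -0.05 for receptor type, 0.04 for non-receptor type and 0.13 for dual-specificity genes, against 0.00039 over all genes. Of the members 20 of 40 had a mean above 0, and over all genes the share was 50.1%. Taken separately, array 1 put the dual-specificity median at 0.65 and array 2 put it at -0.19, so the arrays disagree in sign about the middle of that group while both place the same 3 genes above 2-fold.

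**Figure D1:**
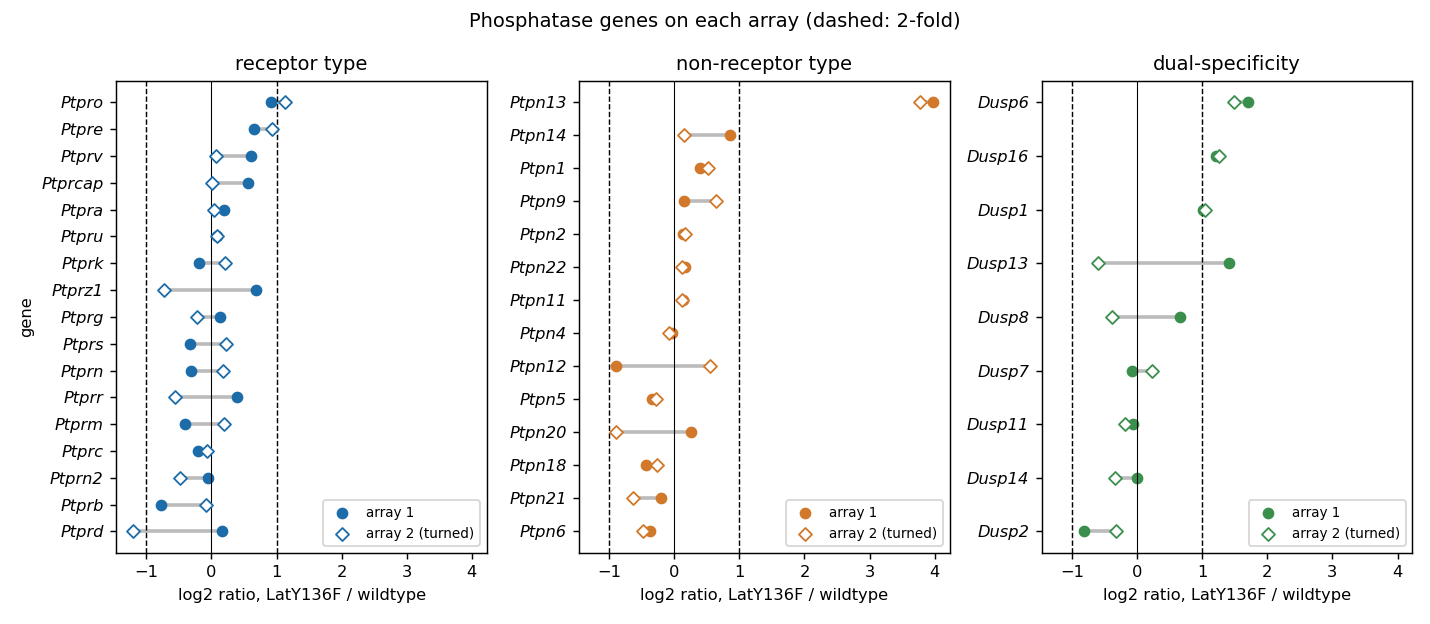
Log2 ratio of LatY136F over wildtype for each of the 40 phosphatase genes, by group; filled circles are array 1, open diamonds array 2 after turning, grey bars join them and dashed lines mark 2-fold. Ptpn13, Dusp6, Dusp16 and Dusp1 lie beyond 2-fold on both arrays, while Dusp13, Ptprz1 and Ptprd lie far apart on the 2 arrays.

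Ptpn13 was the furthest from 0 of all 40 genes. It encodes a very large cytoplasmic tyrosine phosphatase with a FERM domain and several PDZ domains, known to bind the death receptor FAS in human cells. Its log2 ratio was 3.97 on array 1 and 3.78 on array 2, a mean of 3.87 ± 0.10 (14.7-fold). This placed it 10th from the top among the 4331 genes. It rests on 1 probe, and both arrays gave nearly the same ratio.

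The 3 called dual-specificity genes all encode MAP kinase phosphatases. Dusp6, a cytoplasmic phosphatase that prefers ERK, stood at 1.70 and 1.49, a mean of 1.59 ± 0.11 (3.02-fold). Dusp16, a phosphatase of JNK and p38, stood at 1.21 and 1.25, a mean of 1.23 ± 0.02 (2.35-fold). Dusp1, a nuclear phosphatase of JNK, p38 and ERK and an immediate early gene, stood at 1.01 and 1.05, a mean of 1.03 ± 0.02 (2.04-fold). Each has 1 probe, and Dusp1 passed the 2-fold line by a narrow margin on array 1; without centring of the arrays its call was lost, leaving 2 called dual-specificity genes.

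The other 3 measured MAP kinase phosphatases were not called. Dusp2, a nuclear ERK phosphatase induced in activated lymphocytes, had the lowest mean of all 40 genes, at -0.81 on array 1 and -0.32 on array 2 (-0.56 ± 0.25). Dusp7, a cytoplasmic ERK phosphatase like Dusp6, was at -0.07 and 0.23, and Dusp8, which acts on JNK and p38 as Dusp16 does, at 0.65 and -0.39. Within each of these pairs of similar substrate preference, then, 1 gene was called and the other changed sign between the arrays. The atypical members, which lack the MAP kinase binding domain, held no call. Dusp11, which acts on RNA, was at -0.07 and -0.19, and Dusp14 at 0.002 and -0.34. Dusp13, known from testis and muscle, gave 1.41 and -0.61 and has no direction here.

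For the 4 called genes, the 250 bases upstream of the gene start follow, written 5′ to 3′ on the gene's own strand, to set side by side the promoters of genes that were higher together. They come from RefSeq (GRCm38.p6), where 34 of the 40 genes had a promoter entry. Capitals mark matches to the motifs searched on both strands, and each of these genes had 1 start listed. Dusp6 is at chr10:99262981-99263230 (+), Dusp16 at chr6:134792629-134792878 (-), Dusp1 at chr17:26508473-26508722 (-) and Ptpn13 at chr5:103424942-103425191 (+).
Dusp6: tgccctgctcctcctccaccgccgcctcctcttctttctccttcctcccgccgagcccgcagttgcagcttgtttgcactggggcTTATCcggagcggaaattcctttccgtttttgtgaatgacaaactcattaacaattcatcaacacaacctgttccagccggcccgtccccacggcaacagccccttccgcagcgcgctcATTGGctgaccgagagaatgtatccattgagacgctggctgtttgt
Dusp16: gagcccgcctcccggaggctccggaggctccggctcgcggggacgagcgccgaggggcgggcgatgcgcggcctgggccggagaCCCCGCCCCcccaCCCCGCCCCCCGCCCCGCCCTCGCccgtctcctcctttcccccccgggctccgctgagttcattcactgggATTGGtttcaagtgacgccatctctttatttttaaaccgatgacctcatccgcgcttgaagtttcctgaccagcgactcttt
Dusp1: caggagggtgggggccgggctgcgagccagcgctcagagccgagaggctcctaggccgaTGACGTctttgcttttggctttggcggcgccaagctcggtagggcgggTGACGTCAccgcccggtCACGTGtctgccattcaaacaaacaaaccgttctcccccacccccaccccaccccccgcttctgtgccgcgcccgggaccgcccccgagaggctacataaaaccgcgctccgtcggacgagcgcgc
Ptpn13: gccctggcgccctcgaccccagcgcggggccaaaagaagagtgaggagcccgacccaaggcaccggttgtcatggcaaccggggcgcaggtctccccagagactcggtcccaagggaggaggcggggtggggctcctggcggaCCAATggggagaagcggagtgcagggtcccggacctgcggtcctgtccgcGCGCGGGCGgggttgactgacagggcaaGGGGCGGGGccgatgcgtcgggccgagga

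No motif searched was found in all 4 windows. The Dusp1 window held the cyclic AMP response element core TGACGT starting 191 and 143 bases upstream; the second copy overlaps its own reverse complement to form the full palindrome. That core stood in 6.47% of 32851 windows of the same length. The Dusp1 window also held the E-box CACGTG (6.02% of windows). The CCAAT motif stood in the Dusp6, Dusp16 and Ptpn13 windows and in 33.8% of all windows. The EGR motif GCGNGGGCG (4.70% of windows) and the GC box GGGGCGGGG (10.4%) stood in the Dusp16 and Ptpn13 windows; in Dusp16 they share a base. The GATA core GATAA stood in the Dusp6 window and in 22.6% of all windows. Phosphatase genes that were not called held each of these motifs too. Among the 34 with a promoter entry, some with several windows, the cyclic AMP response element core stood in 7 and the E-box in 3. CCAAT stood in 11, the EGR motif in 9, the GC box in 10 and the GATA core in 6. None of the 4 windows held the AP-1 motif TGANTCA (6.75%), the STAT motif TTCNNNGAA (7.02%), the ETS motif CCGGAAGT (2.88%), TATAAA (12.4%) or a CArG box (1.47%). These are matches of letters, and no binding was measured.

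Among receptor type genes the 2 highest ratios missed the 2-fold line on at least 1 array. Ptpro, a receptor phosphatase with fibronectin repeats outside the cell, stood at 0.91 on array 1 and 1.13 on array 2 (1.02 ± 0.11). Ptpre, close in sequence to Ptpra and known to act on Src family kinases, stood at 0.66 and 0.93 (0.80 ± 0.14). Both arrays placed these 2 genes above 1.5-fold and 0 receptor type genes below it.

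Ptprc and Ptpra were near 0 on both arrays. Ptprc, encoding CD45, stood at -0.20 and -0.07, a mean of -0.14 ± 0.07 over 2 probes. Ptprcap, whose product binds CD45 and is not itself a phosphatase although its symbol puts it in the group, gave 0.56 on array 1 and 0.004 on array 2. Ptpra, an activator of Src family kinases, was at 0.20 and 0.04, while its close relative Ptpre, given above, stood at 0.66 and 0.93. None of these was called.

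The remaining receptor type genes are better known from nerve, endothelium, endocrine cells and adhesion than from T cells. The MAM domain genes, whose products bind their own kind on neighbouring cells, lay near 0: Ptprk gave -0.20 and 0.21, Ptprm -0.41 and 0.20, and Ptpru 0.08 on each array. Of the LAR type genes, Ptprs gave -0.33 and 0.23 and Ptprd 0.16 and -1.20, so Ptprd passed 2-fold on array 2 only. Of the genes with a carbonic anhydrase-like domain, Ptprg gave 0.14 and -0.23 and Ptprz1 0.69 and -0.72. All 4 of these genes changed sign between the arrays and have no direction here. The endothelial gene Ptprb was at -0.77 and -0.09. Ptprn and Ptprn2 encode secretory granule proteins known as autoantigens in autoimmune diabetes. Ptprn gave -0.32 and 0.17. Ptprn2 gave -0.06 and -0.48. Ptprr, which binds MAP kinases, gave 0.39 and -0.57. Ptprv, a pseudogene in the RefSeq table, gave 0.61 and 0.08. No group of receptor type genes sharing an outer domain had a member called.

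**Figure D2:**
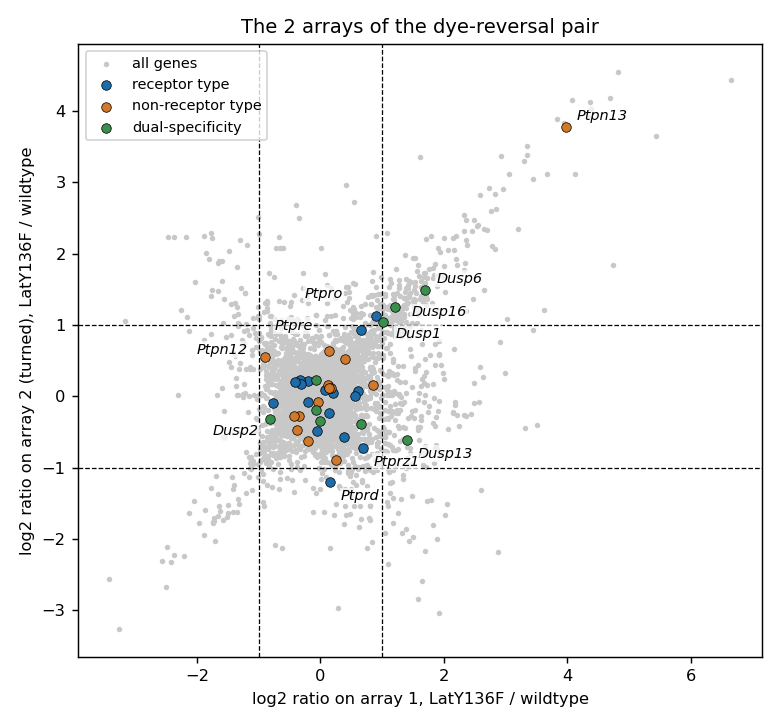
Log2 ratio on array 1 (horizontal) against array 2 after turning (vertical), with all 4331 genes in grey, the 40 phosphatase genes coloured by group and dashed lines at 2-fold. Ptpn13, Dusp6, Dusp16 and Dusp1 lie in the upper right corner beyond 2-fold, and 0 phosphatase genes lie in the lower left corner.

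Apart from Ptpn13, the means of the non-receptor genes ran from -0.42 to 0.50. Ptpn22, Ptpn2 and Ptpn1 were not called. Ptpn22, a tyrosine phosphatase that acts on Lck and Zap70, stood at 0.17 and 0.12. Ptpn2, which acts on Janus kinases, STAT factors and Lck, stood at 0.13 and 0.16, and its close relative Ptpn1, encoding PTP1B, at 0.40 and 0.52. After averaging of probes, each of these 3 genes had nearly the same ratio on both arrays and none reached 1.5-fold on either. Of the 2 Ptpn1 probes, 1 passed 1.5-fold on array 2, at 0.60.

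Of the phosphatases with SH2 domains, Ptpn6 lay below 0 on both arrays and Ptpn11 had no clear direction. Ptpn6, encoding SHP-1, a phosphatase recruited by inhibitory receptors of blood cells, stood at -0.37 and -0.47 (-0.42 ± 0.05). Ptpn11, encoding SHP-2, stood at 0.14 and 0.11. Neither SH2 gene was called. Both Ptpn11 probes changed sign between the arrays, one at 0.63 and -0.02 and the other at -0.36 and 0.25, so their mean hides a disagreement.

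Of the PEST type, which includes Ptpn22, Ptpn18 stood at -0.43 and -0.27 (-0.35 ± 0.08). Ptpn12, known to act on cytoskeletal proteins, gave -0.89 and 0.55 and has no direction. Among the relatives of Ptpn13 with FERM domains, Ptpn14 stood at 0.85 and 0.15, Ptpn21 at -0.20 and -0.63 and Ptpn4 at -0.03 and -0.08. The ratio of Ptpn13 was thus shared by no measured relative with a FERM domain. The neuronal gene Ptpn5 stood at -0.34 and -0.28, Ptpn9, which has a Sec14-like lipid-binding domain, at 0.14 and 0.64, and Ptpn20, known from testis, at 0.26 and -0.89. Without Ptpn13 the median of the non-receptor group was -0.06 and 0 of 13 genes were called.

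After averaging of probes, the arrays gave the same sign for 12 of 14 non-receptor, 9 of 17 receptor type and 5 of 9 dual-specificity genes, and for 55.8% of all genes; differences between the groups were not tested. The ± value had a median of 0.07 in the non-receptor, 0.25 in the receptor type and 0.15 in the dual-specificity group, beside 0.15 for all genes. Averaging lowers this value for genes with several probes, most of which are non-receptor genes: both Ptpn11 probes and 3 of 4 Ptpn4 probes changed sign between the arrays, although the gene means did not. Ratios of 2-fold or more with opposite signs on the arrays were seen for 0 of 40 phosphatase genes and 75 of all 4331. That is a small share of all genes, so 0 of 40 does not show closer agreement of the arrays for phosphatases. At 1.5-fold, Dusp13 and Ptprz1 had such opposite ratios. The table holds ratios only, so whether the genes that disagree had dim signals was not tested.

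Only 5 members had more than 1 probe. The 2 probes of Ptpn1 had means of 0.43 and 0.49, those of Ptprc -0.19 and -0.08, those of Ptpn18 -0.46 and -0.24 and those of Ptpn11 -0.05 and 0.31. The 4 probes of Ptpn4 ranged from -0.39 to 0.18. No probe of these genes reached 2-fold on either array.

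**Figure D3:**
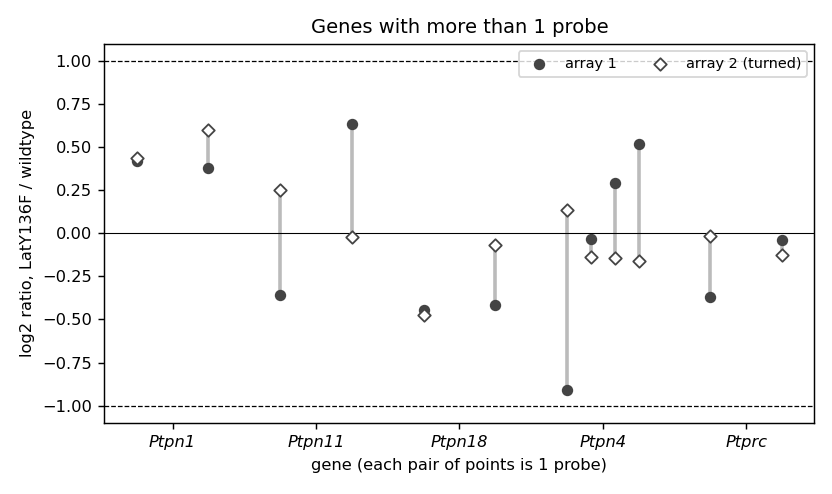
Log2 ratio of each probe of the 5 phosphatase genes with more than 1 probe; filled circles are array 1, open diamonds array 2 after turning, and dashed lines mark 2-fold. The probes of Ptpn1 lie together above 0, while those of Ptpn4 and Ptpn11 fall on both sides of it.

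Other phosphatase families held no called gene. Of 10 measured genes of the tyrosine phosphatase superfamily outside these symbols, 0 were called (median 0.04). Cdkn3, a phosphatase of cyclin-dependent kinases named after its values were seen, came furthest, at 0.53 and 1.16. Of 34 serine/threonine phosphatase genes, catalytic and regulatory, 0 were called (median 0.01), and Ppm1b, a magnesium-dependent phosphatase, stood at -1.04 and -0.80. These medians stand beside 0.00039 over all genes, of which 4.20% were called higher and 0.970% lower. At such shares, 0 calls in lists this small do not set these families apart from other genes.

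Genes of MAP kinases, the substrates of the MAP kinase phosphatases, and of MAP kinase kinases held no call. Over all genes 4.20% were called higher and 0.970% lower, and no departure from these shares was tested. Of 14 MAP kinase and MAP kinase kinase genes 0 were called (median 0.01), and only 4 had the same sign on both arrays. Mapk13, a p38 isoform, came closest, at 1.45 and 0.66. Of 13 measured genes from a list of ERK-induced genes and feedback inhibitors, 2 were called higher and 0 lower (median 0.12). These were Ier3, an early response gene, at 4.38 and 4.03, and Egr1, an early transcription factor, at 1.01 and 1.29. Ier2, another early response gene, stood at 0.92 and 0.79. The list went both ways, with a mean above 0 for 7 of the 13. Fosl1 stood at -1.02 and -0.32 and Myc at -0.44 and -0.57, both named after their values were seen.

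Receptors listed here as recruiting SHP-1 or SHP-2 went both ways while Ptpn6 and Ptpn11 were not called. Of 13 measured, 5 were called higher and 2 lower, with a median of 0.24. The shares over all genes were 4.20% higher and 0.970% lower, and the difference was not tested. Lilrb4a, an inhibitory receptor known from myeloid cells, stood at 2.83 and 2.07, and Pirb, also of myeloid and B cells, at 1.83 and 1.66. Cd72, an inhibitory receptor of B cells, was called lower, at -1.87 and -1.59. Further members, outside the rule for naming, were named after their values were seen. Sirpa (mean 1.54), Fcgr2b (1.41) and Ctla4 (1.10), a receptor found on T cells, were called higher. Cd22 (-1.59), a receptor found on B cells, was called lower. Cd22 and Cd72 are also counted among the B cell markers below, so these lists are not separate.

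Kinases on which these phosphatases act, and the STAT factors, were described by the same counts. Over all genes 4.20% were called higher and 0.970% lower. Whether the counts here depart from those shares was not tested. Lck had no probe with that single symbol and was not analysed here. Of 9 measured genes of the Src and Syk kinases and Csk 0 were called. Their median was -0.04 with means on both sides of 0, from -0.71 to 0.74, and the highest was Matk, a relative of Csk, at 0.69 and 0.79. Of 9 Janus kinase and STAT genes 2 were called higher and 0 lower (median 0.11). They were Jak3 at 1.18 and 1.16 and Jak2 at 1.09 and 1.23, kinases of cytokine receptors.

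Markers of other cell types differed between the RNAs beside all of these groups. Their counts stand beside 4.20% of all genes called higher and 0.970% called lower. Of 12 monocyte and macrophage markers 6 were called higher and 0 lower (median 1.31), of 5 neutrophil markers 3 higher (median 2.50), of 3 erythroid markers 2 higher (median 1.07) and of 2 platelet markers both higher (median 1.38). Of 9 B cell markers 6 were called lower and 0 higher (median -1.59), and of 2 CD8 T cell markers 1 lower (median -1.43). Among 4 NK cell markers 1 was lower (median -0.33), and among 5 dendritic cell markers 1 was higher and 1 lower (median 0.08). Of 8 T cell markers 0 were called (median -0.05), with Cd4 at -0.07 and -0.26. The part of these markers in the ratios of Ptpn13, Dusp6, Dusp16, Dusp1, Ptpro, Ptpre and Ptpn6 was not tested. In RNA from a sorted population, a change in the share of a cell type cannot be told apart from a change in RNA per cell, and ratios cannot show whether a marker was near background.

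**Figure D4:**
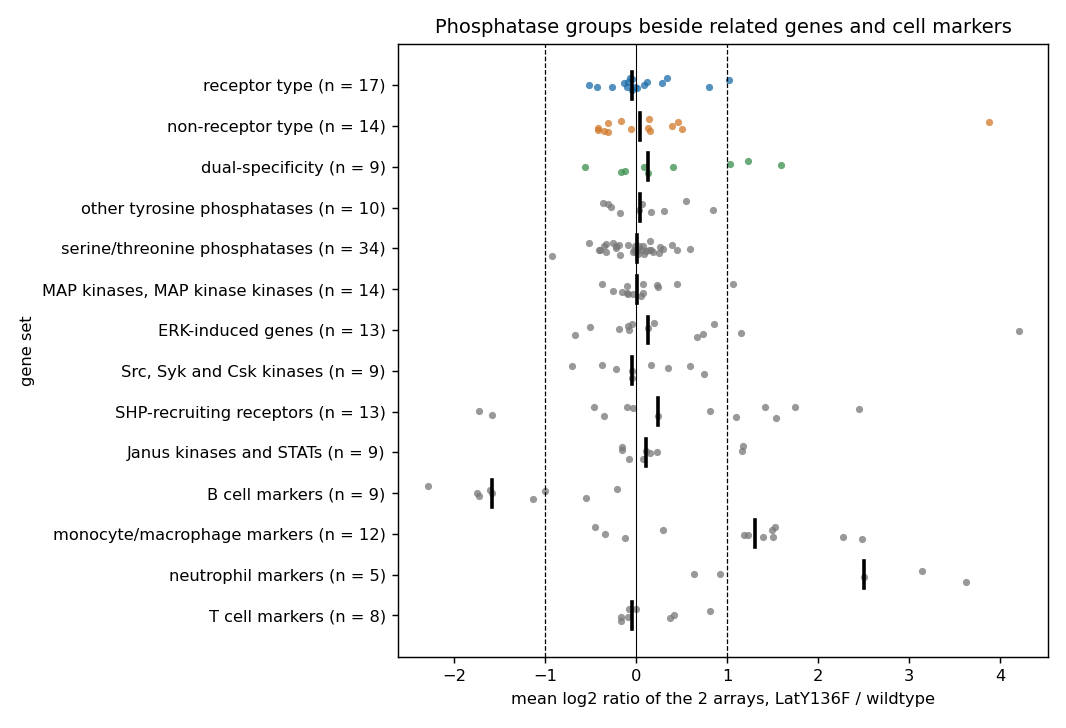
Mean log2 ratio of the 2 arrays for each gene (points) and the median (black bars) of the 3 phosphatase groups, of related gene lists and of cell markers; the solid line is the median of all genes and dashed lines mark 2-fold. The phosphatase medians lie between -0.05 and 0.13, B cell markers at -1.59 and neutrophil markers at 2.50.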

How the data were processed

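The deposited table gives 1 ratio per probe and array, read here as log10, for 8014 probes. The sources used here do not state its log base, background correction, normalization or direction. Array 1 reaches a maximum of exactly 2, which would be a 100-fold limit in log10 units; log10 is therefore the probable base. Signals were not analysed here, so probe brightness is unknown, and 2 arrays limit the precision.

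Deposited values were multiplied by 3.32 to give log2, each array was centred on its median (-0.0033 and 0.0070 as deposited) and array 2 was turned. In the platform annotation 4654 probes had 1 symbol, 73 had several and 3287 had none. Probes of a gene were averaged. All 40 members' gene identifiers and symbols were found in the RefSeq gene table. That table lists 62 protein-coding genes with these symbols, and 23 of them, among them Dusp4, Dusp5, Dusp10, Ptpn7 and Ptprj, had no probe with that single symbol and were not analysed here.

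A gene was called at 2-fold or more, the same way on both arrays; no test of the conditions was run. The calling rule was tested on simulated data. Members, lists and alternatives were chosen with earlier results of these data known. Values on both arrays were to be printed for members at least 1.5-fold apart in the same or in opposite directions, for 10 well-known members where measured, and for up to 3 members of each related list, and were given for all members. Gata3, Il13, Il4 and Cd4 were named outside that rule. Domain classes were assigned, and promoter motifs chosen, after the values were seen. Python 3.11.15, pandas 2.3.3 and numpy 2.4.6 were used.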

Additional observations from a re-analysis of the deposited data

How the results depend on the processing

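Every gene rests on 1 biological comparison and mostly on 1 probe, and brightness is unknown. The 3 dual-specificity calls and the Ptpn13 call rest on array 2 having been turned: with array 2 as deposited, 0 dual-specificity and 0 non-receptor genes were called, and Dusp1 moved to -0.020 and Dusp16 to -0.020. With the sign of both arrays turned, 3 dual-specificity and 1 non-receptor genes were called lower and 0 higher, with Ptpn13 at -3.87, Dusp6 at -1.59, Dusp16 at -1.23 and Dusp1 at -1.03. Read as log2, or at 3-fold on both arrays, 0 dual-specificity genes were called, while Ptpn13 was called under both; without centring 2 were called, Dusp1 being lost. Receptor type genes called higher numbered 2 at 1.5-fold and 1 with 2-fold on the mean, and single arrays gave 0 to 1 called higher and 0 to 1 called lower. The receptor type median of -0.05 was 0.042 to 0.14 on single arrays and 0.045 with the sign turned. The non-receptor median of 0.04 was 0.12 to 0.13 on single arrays, 0.018 without centring, -0.015 with the strongest probe per gene, 0.0099 with every probe singly, 0.011 read as log2, -0.035 with the sign turned and 0.017 with array 2 as deposited. The cause of these shifts was not tested beyond what each alternative changes by construction. Leaving out Ptprcap, chosen after seeing the data, scaling the arrays and leaving out probes at exactly 0, of which the members have 0, changed no count of members called. No paired analysis was possible because there is a single comparison with no group to pair across.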
